A study of Homo sapiens with 15 samples.

Results

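The genes of glycolysis, lactate handling and the pentose phosphate pathway were described isoform by isoform in 143B cells, an established human osteosarcoma line. The members are 36 named genes that take glucose from uptake to lactate export or into the pentose phosphate branch, and all 36 were found by their Ensembl identifiers among the 62700 genes of both count tables. There were 15 libraries in all, with 3 for each of 5 conditions. OSC libraries came from 143B cells grown as tumorspheres in serum-free medium with B27, EGF and FGF, which the study uses to enrich for stem-like osteosarcoma cells, and non-OSC libraries from 143B cells attached to plastic in DMEM with serum. The other libraries came from 143B OSCs that carried a lentiviral hairpin, namely the control shCtrl, shPDK1_1 or shPDK1_2 (written shPDK1#1 and shPDK1#2 in the study). Both shPDK1 hairpins are directed against PDK1, a kinase that inhibits pyruvate dehydrogenase, the complex that turns pyruvate into acetyl-CoA. The labels give non-OSC, OSC and shCtrl the genotype WT and give the others the name of their hairpin. Culture format and medium changed together between non-OSC and OSC, so their parts cannot be told apart. The labels do not say whether the 3 libraries of a condition came from separate cultures, so p-values measure the spread between these libraries, which may be technical.

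Glycolysis converts glucose to pyruvate through a chain of enzymes, several of which exist as isoforms encoded by separate genes with different kinetics and tissue distribution. Pyruvate is then reduced to lactate, which leaves the cell through proton-linked carriers, or enters mitochondria. The pentose phosphate pathway branches off after the first step and supplies NADPH and ribose. Proliferating tumor cells, osteosarcoma cells among them, are known for high glucose uptake and lactate release.

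Values are CPM, the counts of a gene per 1000000 counts of its library, scaled with edgeR's TMM factors, and errors are SD over n = 3 libraries. The per-library values below are in the order of the replicate numbers. Where genes are compared with each other, CPM was divided by the length of all annotated exons in kb, since a longer gene collects more reads. The OSC table and the hairpin table were normalized apart, so that levels are tested only within a table. The quasi-likelihood test of edgeR was run over all genes of a table that passed the filter on low counts, p was adjusted over all of these by the Benjamini-Hochberg method, and a gene was called changed where the adjusted p was under 0.05. All 36 members passed that filter in both tables, including members at low levels in both groups. Every adjusted p below comes from this test unless DESeq2 is named. Each library pools a whole culture, so that fewer cells with a transcript and less of it per cell cannot be told apart.

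The comparison of OSC with non-OSC asks how these genes differ between sphere and attached culture. The glucose transporters SLC2A1 and SLC2A3 were 2.65-fold and 6.7-fold higher in OSC, the regulatory enzymes PFKFB3 and PFKFB4 2.4-fold and 5.37-fold, the neuronal-type enolase ENO2 5.48-fold and BPGM, which makes bisphosphoglycerate, 8.67-fold. LDHB, which favors lactate oxidation, and RPIA, the ribose phosphate isomerase, were lower in OSC, at 63.1% and 40.6% of the non-OSC level. Of the abundant enzymes, GAPDH, ENO1, ALDOA, PKM and LDHA had ratios of 0.926, 0.889, 0.930, 1.01 and 1.06. PGK1, also abundant, had a ratio of 1.63, and PGAM1 of 0.841. Of the 36 members, 27 were called, 16 of them higher and 11 lower, and 9 did not pass the threshold. Over all 14287 genes tested, 63.9% were called, 32.4% higher and 31.5% lower. The median log2 fold change was 0.091 over the members and -0.0053 over all genes tested. Among changes of at least 1.5-fold, 11 members were higher, where the share over all genes tested was 18.8%, and 2 were lower, where it was 15.4%. Of the 36 members, 28 had no overlap between OSC and non-OSC libraries (18 higher and 10 lower), against 66.9% of all genes tested (33.8% and 33%). The calls of LDHA, ALDOA and PFKFB2 each depended on single libraries, and their values without these are given with the gene.

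**Figure D1:**
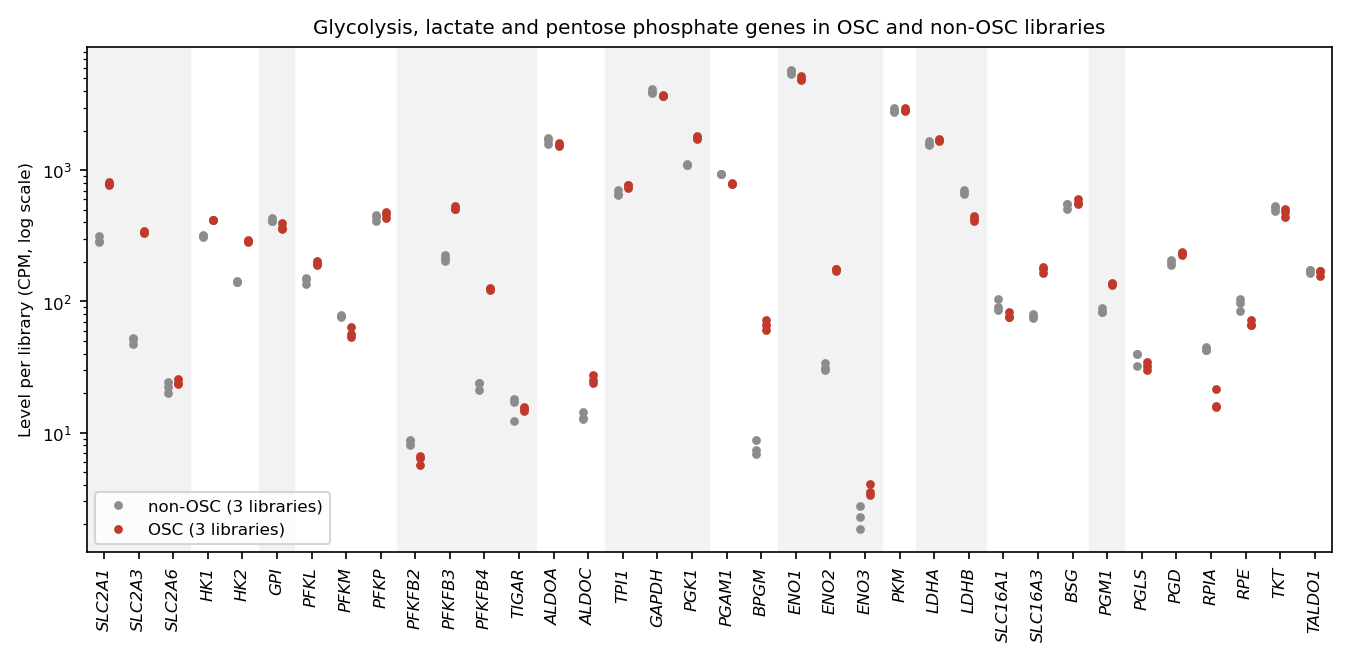
Level of each of the 36 members in each of the 3 OSC and 3 non-OSC libraries, in CPM on a log axis, with genes on the x axis in pathway order and shaded bands separating the steps. SLC2A3, PFKFB4, BPGM and ENO2 stand far above their non-OSC level in all OSC libraries, while the points of PKM, LDHA and ALDOA lie close together.

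With shPDK1_1, 8 members were called changed against shCtrl, and all of these were higher. They were the glucose transporters SLC2A1 (1.24-fold) and SLC2A3 (1.42-fold), the hexokinase HK2 (1.35-fold), PFKFB3 (1.13-fold), the aldolase ALDOC (1.41-fold), GAPDH (1.08-fold), PGK1 (1.09-fold) and ENO2 (1.21-fold). No member reached 1.5-fold in either direction, as 0.281% of all genes did upward and 0.165% downward with a call. Over all 14574 genes tested, 3.06% were called, 1.62% higher and 1.44% lower. The median log2 fold change was 0.067 over the members and 0.0024 over all genes. No overlap with the shCtrl libraries was found for 12 of 36 members (11 higher and 1 lower), against 19.3% of all genes (9.77% and 9.52%). The calls of HK2, SLC2A1 and SLC2A3 held in all 13 alternatives. The count fell to 4 without shCtrl replicate 1, to 4 without shCtrl replicate 2 and to 4 without shPDK1_1 replicate 3, while the calls over all genes fell from 446 to 270, 282 and 245. ENO2, GAPDH and PGK1 were lost in each of these 3 fits, and the values of these and of ALDOC and PFKFB3 are given with the gene.

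With shPDK1_2, 16 members were called changed against shCtrl, of which 14 were higher and 2 lower. BPGM fell to 28.1% of the shCtrl level and PFKFB3 to 76.5%. The members that rose were the glucose transporter SLC2A1, the enzymes GPI, PFKM, PFKFB2, PFKFB4, ALDOA, ALDOC, TPI1, GAPDH, PGK1, PGAM1, ENO1 and LDHB, and BSG, the chaperone of the lactate carriers. Their ratios lay between 1.07 for TPI1 and 1.5 for ALDOC, the only one of these to reach 1.5-fold. With 1 library left out, the log2 fold change of ALDOC ran from 0.457 to 0.695, so its reaching 1.5-fold depended on single libraries. Over all genes tested, 26.2% were called, 12% higher and 14.2% lower, the shares for at least 1.5-fold were 2.24% higher and 3.35% lower, and the median log2 fold change was 0.104 over the members and 0.0083 over all genes. No overlap with the shCtrl libraries was found for 22 of 36 members (19 higher and 3 lower), against 39.5% of all genes (19.5% and 20%). The calls of BSG, ENO1, PFKFB2 and TPI1 each depended on single libraries, whose values are given with the gene.

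The hairpin comparisons share the shCtrl libraries, so their changes are set side by side and not counted as independent evidence of each other. SLC2A1, ALDOC, GAPDH and PGK1 were called higher with either hairpin, and PFKFB3 was called higher with shPDK1_1 and lower with shPDK1_2. In the direct comparison of the hairpin groups, 13 of 36 members were called, against 16.3% of all 14574 genes tested. Of these, 9 were higher with shPDK1_2 (6.5% of all genes) and 4 were lower (9.78%), namely BPGM, PFKFB3, SLC2A3 and HK2. BPGM was the only member called with a difference of at least 1.5-fold between the hairpins, where the share of all genes was 0.981% upward and 1.85% downward. The libraries of shPDK1_1 and shPDK1_2 had no overlap for 22 members (16 higher and 6 lower), against 30.7% of all genes (14.5% and 16.3%). PDK1 itself, the target, had 45.2 ± 1.28 CPM in shCtrl, 28.1 ± 0.844 in shPDK1_1 and 19.8 ± 1.65 in shPDK1_2, so the target was lower in both hairpin groups. The remaining PDK1 level was lower with shPDK1_2 than with shPDK1_1 (log2 fold change -0.50, SE 0.091, adjusted p = 0.00024). PDK1 had 70.3 ± 3.03 CPM in OSC and 46.6 ± 4.47 in non-OSC (log2 fold change 0.59, SE 0.079, adjusted p = 9.85e-07). Its shCtrl level lay nearer to that of non-OSC, though the OSC and hairpin tables were normalized apart and this was not tested.

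**Figure D2:**
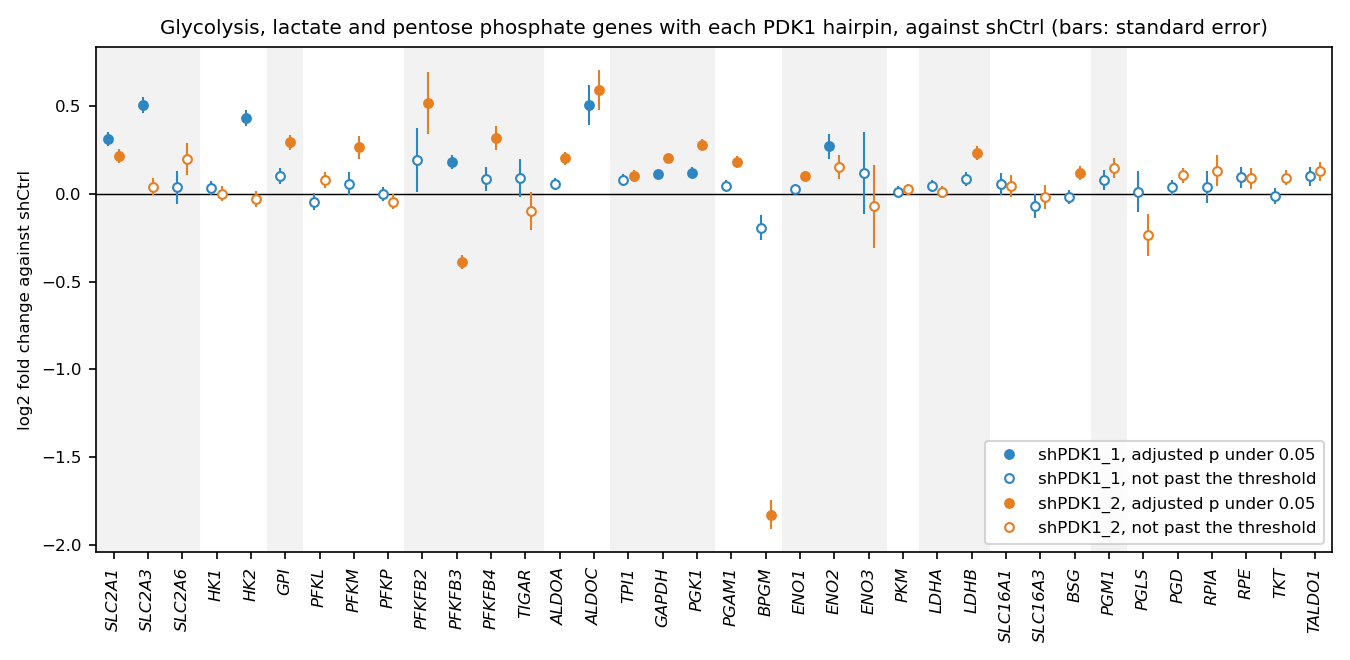
Log2 fold change of each of the 36 members against shCtrl with shPDK1_1 and shPDK1_2, with bars for the standard error of the edgeR fit and filled points for an adjusted p under 0.05. BPGM with shPDK1_2 lies at -1.83, far below all others, and PFKFB3 has filled points on either side of 0.

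The promoters of 6 members whose changes the hairpin results turn on are shown, 4 that rose with either hairpin and the only 2 that fell with shPDK1_2. Each is the 250 bases before a RefSeq transcription start on GRCh38.p14, read 5′ to 3′ on the strand of the gene. Capitals mark ACGTG and GCGTG on either strand (CACGT and CACGC when read backwards), the core letters of the hypoxia response element. Where ACGTG meets its reverse in CACGTG, the E-box letters, the overlapping matches form a single capital run and count as 1 match on each strand.
SLC2A1 (chr1:42958869-42959118, minus strand): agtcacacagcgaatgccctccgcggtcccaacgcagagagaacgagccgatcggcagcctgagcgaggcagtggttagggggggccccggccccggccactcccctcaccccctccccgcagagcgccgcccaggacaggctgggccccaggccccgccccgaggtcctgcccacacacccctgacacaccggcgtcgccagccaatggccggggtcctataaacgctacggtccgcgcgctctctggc
ALDOC (chr17:28576896-28577145, minus strand): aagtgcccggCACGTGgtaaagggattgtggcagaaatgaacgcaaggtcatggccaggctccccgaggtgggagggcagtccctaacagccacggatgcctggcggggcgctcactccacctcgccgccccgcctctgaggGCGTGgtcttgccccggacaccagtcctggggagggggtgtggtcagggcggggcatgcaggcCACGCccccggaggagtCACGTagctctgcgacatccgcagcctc
GAPDH (chr12:6535014-6535263, plus strand): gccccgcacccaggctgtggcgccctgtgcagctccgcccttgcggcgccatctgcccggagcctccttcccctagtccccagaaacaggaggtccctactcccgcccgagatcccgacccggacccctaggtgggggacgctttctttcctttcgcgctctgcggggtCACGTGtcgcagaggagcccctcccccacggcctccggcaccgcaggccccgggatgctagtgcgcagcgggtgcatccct
PGK1 (chrX:78103998-78104247, plus strand): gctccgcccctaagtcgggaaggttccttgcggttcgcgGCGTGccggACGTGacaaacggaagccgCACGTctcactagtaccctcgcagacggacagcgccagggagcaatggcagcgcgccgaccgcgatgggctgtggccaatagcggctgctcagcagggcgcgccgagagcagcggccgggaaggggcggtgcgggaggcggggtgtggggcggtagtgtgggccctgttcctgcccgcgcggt
PFKFB3 (chr10:6144671-6144920, plus strand): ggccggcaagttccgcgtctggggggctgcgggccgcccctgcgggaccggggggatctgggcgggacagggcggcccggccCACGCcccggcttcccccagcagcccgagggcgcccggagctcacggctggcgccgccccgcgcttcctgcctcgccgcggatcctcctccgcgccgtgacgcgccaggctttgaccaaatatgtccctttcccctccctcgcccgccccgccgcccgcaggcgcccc
BPGM (chr7:134646603-134646852, plus strand): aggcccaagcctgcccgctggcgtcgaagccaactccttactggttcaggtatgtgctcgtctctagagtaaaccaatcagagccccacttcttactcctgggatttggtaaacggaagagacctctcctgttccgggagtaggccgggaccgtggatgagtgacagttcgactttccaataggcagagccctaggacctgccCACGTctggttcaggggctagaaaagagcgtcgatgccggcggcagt

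Among the members that rose with either hairpin, the window of ALDOC held ACGTG 3 times and GCGTG 2 times, that of PGK1 2 times and 1 time, that of GAPDH ACGTG 2 times, and that of SLC2A1 neither. The window of BPGM held ACGTG 1 time and that of PFKFB3 GCGTG 1 time. PFKFB3 has 2 windows, and the one nearest the annotated start of the gene is shown. Each of the other genes shown has 1 window. RefSeq windows were found for 33 of the 36 members, with 62 windows in all. ACGTG stood in 33.9% of the members' windows and in 18.5% of all 35116 windows of the same length, and GCGTG in 32.3% and 32.2%. CACGTG stood in 11.3% and 6.34%. By gene, ACGTG stood in a window of 54.5% of the 33 members and of 21.7% of all 27305 genes. For GCGTG these shares were 54.5% and 36.2%, and for CACGTG 21.2% and 7.73%. A gene with more windows has more room for a match, and window numbers were not matched. Base composition was not matched either, although the motifs searched all hold the letters CG. The comparison windows were not limited to genes expressed in these cells. The differences between these shares were not tested. These shares describe letters in a window, and several windows of a gene overlap. SLC2A3, PFKFB2 and SLC16A1 had no entry.

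The glucose transporters carry glucose across the plasma membrane. SLC2A1 (ENSG00000117394.24, chr1:42925353-42958893, minus strand) encodes GLUT1, the basal transporter of most cells, and SLC2A3 (ENSG00000059804.17, chr12:7919230-8019007, minus strand) encodes GLUT3, which has a higher affinity for glucose. SLC2A1 had 782, 766 and 808 CPM in the OSC libraries and 284, 315 and 289 in the non-OSC libraries (log2 fold change 1.41, SE 0.046, adjusted p = 1.08e-16). SLC2A3 had 346, 335 and 337 CPM in OSC and 52.7, 51.9 and 47.4 in non-OSC (log2 fold change 2.74, SE 0.056, adjusted p = 6.43e-20). Every OSC library lay above every non-OSC library for both genes. SLC2A6, which encodes a transporter found on lysosomes, had 24.3 ± 1.02 CPM in OSC and 22.3 ± 2.08 in non-OSC (adjusted p = 0.306). Per kb of exon, SLC2A1 was the most abundant of the 3 in all 5 conditions, but SLC2A3 made up 27.1% ± 0.618 of their sum in OSC and 12% ± 0.818 in non-OSC. In the hairpin table, SLC2A3 had 177, 184 and 184 CPM in shCtrl, 266, 252 and 257 in shPDK1_1 and 184, 178 and 198 in shPDK1_2. The shPDK1_1 libraries lay above all others (log2 fold change 0.51, SE 0.046, adjusted p = 5.86e-08), while shPDK1_2 and shCtrl overlapped (adjusted p = 0.57). The direct difference of shPDK1_2 from shPDK1_1 was -0.47 on the log2 scale (SE 0.045, adjusted p = 3.19e-08). SLC2A1 had 330.3, 329.6 and 349 CPM in shCtrl, 411, 430.4 and 413 in shPDK1_1 (log2 fold change 0.31, SE 0.039, adjusted p = 1.12e-05) and 384, 394 and 393 in shPDK1_2 (log2 fold change 0.21, SE 0.039, adjusted p = 0.000125). Both hairpin groups lay above shCtrl in every library, and the hairpin groups did not pass the test against each other (adjusted p = 0.0826). SLC2A3 made up 30.4% ± 0.644 of the summed transporters per kb in shCtrl, 33.8% ± 1.1 in shPDK1_1 and 27.9% ± 1.13 in shPDK1_2. Of the sequence of SLC2A3, 6.92% is shared with SLC2A14 in stretches of 75 bases, and SLC2A14 had at most 2 counts in any library.

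The hexokinases trap glucose as glucose phosphate, HK1 as the housekeeping form and HK2 (ENSG00000159399.10, chr2:74834127-74893359, plus strand) as the inducible form of muscle and many tumors. HK2 had 284, 292 and 291 CPM in OSC and 141, 144 and 140.0 in non-OSC (log2 fold change 1.03, SE 0.048, adjusted p = 4.16e-14), with no overlap. HK1 was also higher, with 417 ± 2.34 CPM in OSC and 316 ± 6.8 in non-OSC (log2 fold change 0.40, SE 0.042, adjusted p = 2.95e-08). The share of HK2 in both hexokinases per kb was 44.6% ± 0.280 in OSC and 34.3% ± 0.586 in non-OSC, and the log2 ratio of HK1 to HK2 within each library, on the CPM scale, was 0.53 ± 0.016 and 1.16 ± 0.038. The ratios did not overlap between the groups, which gives an exact permutation p of 0.1, two-sided, the smallest that 3 against 3 libraries allow. In the hairpin table, HK2 had 141, 137 and 142 CPM in shCtrl, 189, 184 and 194 in shPDK1_1 (log2 fold change 0.43, SE 0.046, adjusted p = 8.3e-07) and 135, 138 and 139 in shPDK1_2 (adjusted p = 0.71). All shPDK1_1 libraries were above all others, and HK2 differed between the hairpins (log2 fold change -0.46, SE 0.045, adjusted p = 3.26e-08). The HK2 share was 33.6% ± 1.06 in shCtrl, 40.1% ± 1.48 in shPDK1_1 and 33.1% ± 0.337 in shPDK1_2. HK1 had 321, 329 and 322 CPM in the same order and passed no test there.

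**Figure D3:**
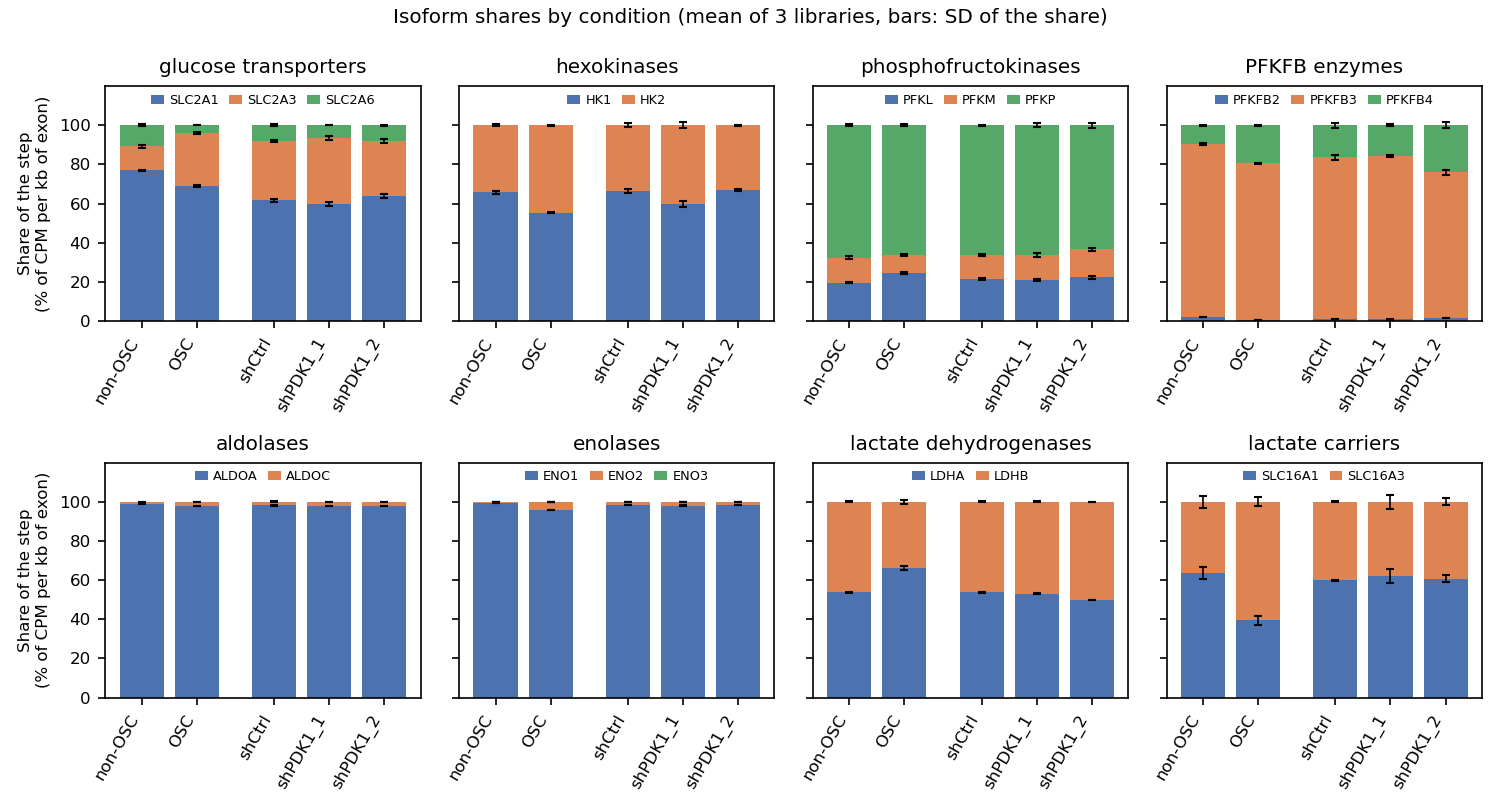
Share of each isoform in the summed level of its step, as percent of CPM per kb of exon, in 5 conditions (bars show the mean of 3 libraries and error bars the SD of the share, with a gap between the tables). The SLC2A3, HK2, PFKFB4, LDHA and SLC16A3 segments are larger in OSC than in non-OSC, while PFKP holds about the same segment in each.

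Phosphofructokinase commits sugar to glycolysis, and its subunits are named for liver (PFKL), muscle (PFKM) and platelets (PFKP). PFKL had 188, 202 and 197 CPM in OSC and 137, 150.1 and 149 in non-OSC (log2 fold change 0.43, SE 0.054, adjusted p = 4.69e-07). PFKM had 53.7, 57 and 63.8 CPM in OSC and 76.2, 76.8 and 78.2 in non-OSC (log2 fold change -0.41, SE 0.072, adjusted p = 4.47e-05). Neither gene overlapped between the groups, and PFKL was higher and PFKM lower in OSC. PFKP, the most abundant of the 3 per kb in every condition, had 459 ± 25 CPM in OSC and 436 ± 24.4 in non-OSC (adjusted p = 0.191, but 0.0489 with scaling by library size alone and 0.0354 with the replicate block). PFKP made up 66.3% ± 0.530 of the subunits per kb in OSC, 67.6% ± 0.633 in non-OSC, 66.4% ± 0.173 in shCtrl, 66.4% ± 0.883 in shPDK1_1 and 63.3% ± 1.27 in shPDK1_2. PFKM was higher with shPDK1_2, with 84.9 ± 5.9 CPM against 70.7 ± 1.51 in shCtrl (log2 fold change 0.27, SE 0.064, adjusted p = 0.00263), and had 73.3 ± 4.3 with shPDK1_1. GPI, the isomerase between hexokinase and phosphofructokinase, was slightly lower in OSC, with 373 ± 21.1 CPM against 420.1 ± 13.5 (log2 fold change -0.17, SE 0.047, adjusted p = 0.00295). With shPDK1_2 it had 377 ± 13.3 CPM against 308 ± 13 in shCtrl and 330.1 ± 16.8 with shPDK1_1, and passed the test against both (log2 fold change 0.29, adjusted p = 1.23e-05 and log2 fold change 0.19, adjusted p = 0.00292).

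The PFKFB enzymes make and remove the sugar bisphosphate that activates phosphofructokinase, and PFKFB3, whose kinase activity dominates, and PFKFB4 are the forms most often described in tumors. PFKFB3 (ENSG00000170525.21, chr10:6144934-6254644, plus strand) had 503, 509.7 and 531 CPM in OSC and 203, 225 and 215 in non-OSC (log2 fold change 1.26, SE 0.047, adjusted p = 1.05e-15). PFKFB4 had 124, 122 and 127 CPM in OSC and 21.2, 24.1 and 24.1 in non-OSC (log2 fold change 2.43, SE 0.074, adjusted p = 3.99e-17). PFKFB2, the heart form, was scarce, with 5.67, 6.37 and 6.64 CPM in OSC and 8.78, 8.1 and 8.7 in non-OSC (log2 fold change -0.45, SE 0.17, adjusted p = 0.0281). PFKFB3 and PFKFB4 were thus higher in every OSC library and PFKFB2 lower, but the call of PFKFB2 was lost without OSC replicate 1 (log2 fold change -0.39, adjusted p = 0.0873), OSC replicate 2 (adjusted p = 0.0515), non-OSC replicate 1 (0.0676) or non-OSC replicate 3 (0.0645), and with DESeq2 (0.0844). Per kb of exon, PFKFB3 held 80.1% ± 0.230 of the 3 genes in OSC and 88.3% ± 0.317 in non-OSC, and PFKFB4 19.3% ± 0.267 and 9.54% ± 0.320.

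With the hairpins, PFKFB3 had 329, 316 and 334 CPM in shCtrl, 367, 375 and 368 in shPDK1_1 and 247, 245 and 257 in shPDK1_2. The shPDK1_1 libraries lay above (log2 fold change 0.18, SE 0.039, adjusted p = 0.00703) and the shPDK1_2 libraries below (log2 fold change -0.39, SE 0.04, adjusted p = 3.26e-08) every shCtrl library. The rise with shPDK1_1 was lost without shCtrl replicate 2 (log2 fold change 0.16, adjusted p = 0.0745). PFKFB3 was lower with shPDK1_2 than with shPDK1_1 in the direct test (log2 fold change -0.57, SE 0.039, adjusted p = 6.08e-11). PFKFB4 had 60.5, 69.7 and 64.4 CPM in shCtrl, 71, 70.3 and 65.6 in shPDK1_1 (adjusted p = 0.631) and 80.2, 85.8 and 76.9 in shPDK1_2 (log2 fold change 0.32, SE 0.066, adjusted p = 0.000625). Within each shPDK1_2 library the log2 ratio of PFKFB3 to PFKFB4 was therefore lower than in shCtrl, at 1.63 ± 0.11 and 2.33 ± 0.13 (exact permutation p = 0.1, two-sided). PFKFB2 had 9.65 ± 0.775 CPM with shPDK1_2 and 6.72 ± 0.864 in shCtrl (log2 fold change 0.52, SE 0.18, adjusted p = 0.0328), a call that DESeq2 did not make (adjusted p = 0.0742) and that was lost without shCtrl replicate 1 (0.138), shCtrl replicate 3 (0.0646), shPDK1_2 replicate 2 (0.0544) or shPDK1_2 replicate 3 (0.115). TIGAR, a phosphatase that lowers the same activator, had 15.1 ± 0.516 CPM in OSC, 15.9 ± 3.09 in non-OSC and 16.7, 17.7 and 15.6 in shCtrl, shPDK1_1 and shPDK1_2, with no call. An annotated readthrough gene that overlaps TIGAR took 24.1% to 45.7% of their summed counts, so the level of TIGAR is uncertain.

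Aldolase splits the sugar bisphosphate, with ALDOA as the ubiquitous form and ALDOC (ENSG00000109107.14, chr17:28573115-28576948, minus strand) as the brain form. ALDOC had 23.8, 25.3 and 27.5 CPM in OSC and 13, 12.7 and 14.4 in non-OSC (log2 fold change 0.93, SE 0.11, adjusted p = 3.27e-07), with no overlap. ALDOA had 1519.7, 1549 and 1623 CPM in OSC and 1587, 1703 and 1753 in non-OSC (log2 fold change -0.10, SE 0.04, adjusted p = 0.0263), and this small difference was lost without OSC replicate 1 (log2 fold change -0.082, adjusted p = 0.113), OSC replicate 2 (adjusted p = 0.0923), non-OSC replicate 2 (0.0672) or non-OSC replicate 3 (0.13), and under scaling by library size alone (0.116). ALDOC made up 2.34% ± 0.0927 of the aldolases per kb in OSC and 1.15% ± 0.0631 in non-OSC, and 1.76% ± 0.285, 2.38% ± 0.0748 and 2.29% ± 0.0255 in shCtrl, shPDK1_1 and shPDK1_2. In the hairpin table, ALDOC had 12.9, 16.9 and 18.5 CPM in shCtrl, 21.6, 23.2 and 23.4 in shPDK1_1 (log2 fold change 0.51, SE 0.11, adjusted p = 0.0107) and 23.7, 25.4 and 23.6 in shPDK1_2 (log2 fold change 0.59, SE 0.11, adjusted p = 0.000239). Both hairpin groups lay above shCtrl, whose replicate 1 was the lowest library. Without shCtrl replicate 1 the call with shPDK1_1 was lost (log2 fold change 0.37, adjusted p = 0.11), as it was without shPDK1_1 replicate 3 (0.48, adjusted p = 0.0659). ALDOA had 1317 ± 26.8 CPM in shCtrl, 1370.2 ± 69.1 in shPDK1_1 (adjusted p = 0.517) and 1516 ± 49.8 in shPDK1_2 (log2 fold change 0.20, SE 0.036, adjusted p = 0.000108). The exons of ALDOA overlap other annotation on the same strand over 42.8% of their length. An annotated locus shares 33.9% of the sequence of ALDOA, and reads in shared stretches cannot be assigned with certainty. That locus took 4.56% to 7.59% of their summed counts in the OSC table, and adding it changed no call.

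In the middle of the pathway, TPI1 interconverts the triose phosphates, GAPDH oxidizes glyceraldehyde phosphate and PGK1 makes ATP. PGK1 (ENSG00000102144.15, chrX:77910739-78129295, plus strand) had 1740.0, 1787 and 1816 CPM in OSC and 1091, 1087 and 1109 in non-OSC (log2 fold change 0.70, SE 0.035, adjusted p = 1.18e-13), and was the only gene of the 3 to pass 1.5-fold. TPI1 had 757 ± 20.2 CPM in OSC and 675 ± 32.9 in non-OSC (log2 fold change 0.16, SE 0.042, adjusted p = 0.00179). GAPDH was the most abundant member per kb in all 5 conditions and was slightly lower in OSC, with 3696 ± 55.4 CPM against 3994 ± 126 (log2 fold change -0.11, SE 0.032, adjusted p = 0.00416). In the hairpin table, PGK1 had 1058, 1072 and 1093 CPM in shCtrl, 1166, 1151 and 1184 in shPDK1_1 (log2 fold change 0.12, SE 0.031, adjusted p = 0.0316) and 1281, 1323 and 1311 in shPDK1_2 (log2 fold change 0.28, SE 0.031, adjusted p = 1.25e-07). The shPDK1_2 libraries lay above all shPDK1_1 libraries, which lay above all shCtrl libraries, and the hairpins differed (log2 fold change 0.16, SE 0.031, adjusted p = 0.000517). The shPDK1_1 call of PGK1 was lost without shCtrl replicate 1 (adjusted p = 0.14), 2 (0.119) or 3 (0.0502), without shPDK1_1 replicate 1 (0.085) or 3 (0.155), and in a fit of the compared groups alone (0.0569). GAPDH had 3356 ± 38.9 CPM in shCtrl, 3624 ± 76.5 in shPDK1_1 (log2 fold change 0.11, SE 0.028, adjusted p = 0.0211) and 3865 ± 29.6 in shPDK1_2 (log2 fold change 0.20, SE 0.028, adjusted p = 2.42e-06). The shPDK1_1 call of GAPDH was lost without shCtrl replicate 1 (0.063), shCtrl replicate 2 (0.114) or shPDK1_1 replicate 3 (0.0694). TPI1 had 643 ± 8.53, 678 ± 22.5 and 689 ± 8.58 CPM in shCtrl, shPDK1_1 and shPDK1_2, with a call for shPDK1_2 (log2 fold change 0.10, SE 0.035, adjusted p = 0.035) that was lost without any single library of shCtrl (adjusted p of 0.0514, 0.107 and 0.109 without replicates 1, 2 and 3) or of shPDK1_2 (0.0601, 0.0527 and 0.122).

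PGAM1 moves the phosphate of phosphoglycerate, and BPGM (ENSG00000172331.12, chr7:134646811-134679816, plus strand) makes bisphosphoglycerate, known in red cells for lowering the oxygen affinity of hemoglobin. BPGM had 66.4, 61.1 and 72.4 CPM in the OSC libraries and 8.78, 7.44 and 6.83 in the non-OSC libraries (log2 fold change 3.10, SE 0.11, adjusted p = 6.2e-16). This was the largest change of any member in the OSC comparison, with every OSC library above every non-OSC library. BPGM had 62.4, 63.3 and 67.2 CPM in shCtrl, 55.6, 56 and 57.1 in shPDK1_1 (adjusted p = 0.195) and 19.6, 15.6 and 19.1 in shPDK1_2 (log2 fold change -1.83, SE 0.084, adjusted p = 1.28e-14). The shPDK1_1 libraries also lay below all shCtrl libraries, without passing the test, and the shPDK1_2 libraries far below both. The direct difference of shPDK1_2 from shPDK1_1 was -1.64 on the log2 scale (SE 0.085, adjusted p = 2.06e-13). PGAM1 went the other way in each table. It had 786 ± 7.81 CPM in OSC and 935 ± 4.02 in non-OSC (log2 fold change -0.25, SE 0.036, adjusted p = 3.16e-06), and 797 ± 7.21 in shPDK1_2 against 703 ± 11.3 in shCtrl (log2 fold change 0.18, SE 0.033, adjusted p = 0.000143) and 727 ± 11.1 in shPDK1_1. PGAM1 shares 35.1% of its sequence with near copies, and the most counted of these took 1.03% to 1.67% of their summed counts.

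**Figure D4:**
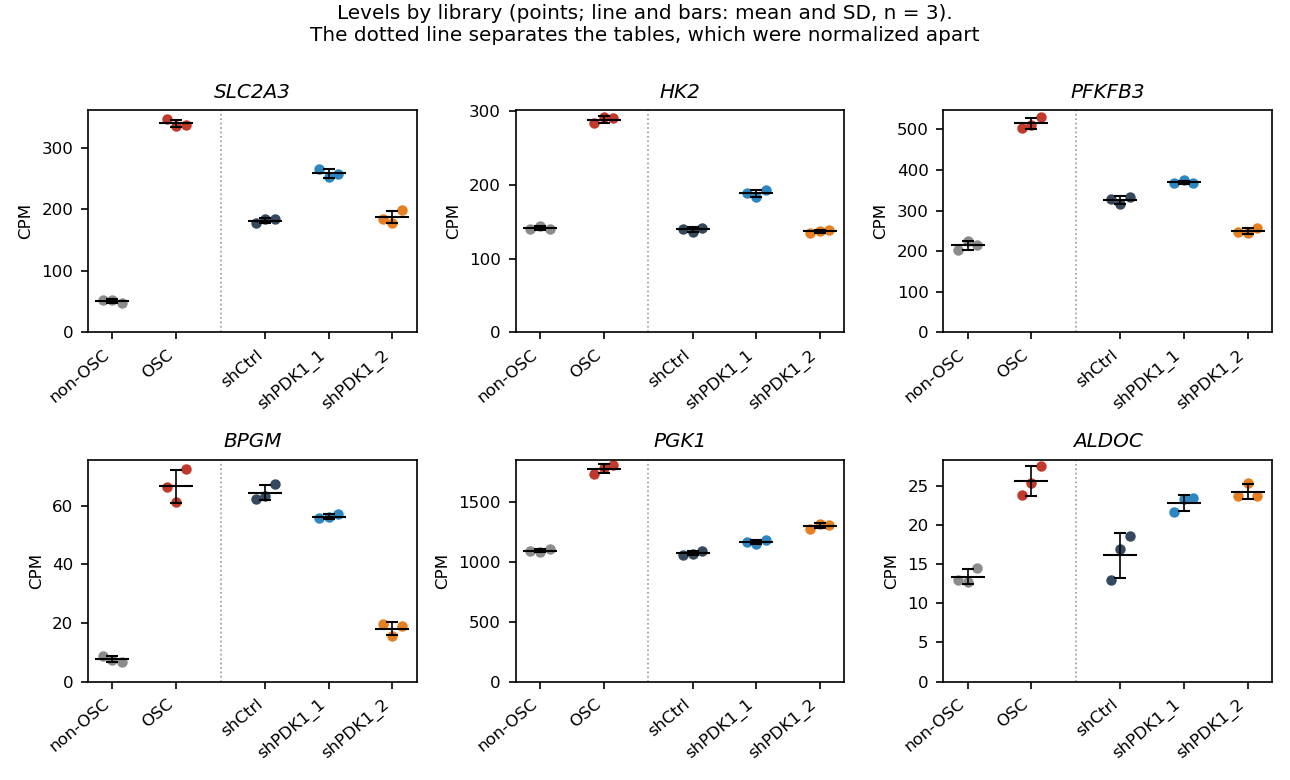
CPM of SLC2A3, HK2, PFKFB3, BPGM, PGK1 and ALDOC in each of the 15 libraries (points), with the mean and SD of each condition (line and bars) and a dotted line between the separately normalized tables. BPGM is low in non-OSC and shPDK1_2, SLC2A3 and HK2 are higher in shPDK1_1 than in the other hairpin conditions, and PFKFB3 is above shCtrl in shPDK1_1 and below it in shPDK1_2.

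Enolase makes phosphoenolpyruvate, with ENO1 as the ubiquitous, ENO2 as the neuronal and ENO3 as the muscle form. ENO2 had 169.7, 177 and 175 CPM in OSC and 33.8, 31.1 and 30.2 in non-OSC (log2 fold change 2.45, SE 0.066, adjusted p = 4.36e-18), and ENO1 4969, 4912 and 5203 CPM in OSC and 5418, 5745 and 5806 in non-OSC (log2 fold change -0.17, SE 0.033, adjusted p = 0.000119). ENO2 was higher and ENO1 lower in every OSC library than in any non-OSC library. ENO1 still made up 95.9% ± 0.132 of the enolases per kb in OSC and 99.3% ± 0.0590 in non-OSC, and ENO2 4.04% ± 0.135 and 0.680% ± 0.0666. The log2 ratio of ENO1 to ENO2 within a library was 4.85 ± 0.05 in OSC and 7.48 ± 0.14 in non-OSC, a 6.17-fold difference of the ratios (exact permutation p = 0.1, two-sided). ENO2 had 56.4, 56.7 and 63.6 CPM in shCtrl, 75, 67.4 and 70.7 in shPDK1_1 (log2 fold change 0.27, SE 0.07, adjusted p = 0.0286) and 62.1, 63.7 and 70.5 in shPDK1_2 (adjusted p = 0.112). The shPDK1_1 call was lost without shCtrl replicate 1 (adjusted p = 0.165), shCtrl replicate 2 (0.156), shPDK1_1 replicate 1 (0.135) or shPDK1_1 replicate 3 (0.0972), and the hairpins did not pass the test against each other (adjusted p = 0.275). ENO1 had 4492 ± 113, 4575 ± 85.6 and 4824 ± 153 CPM in shCtrl, shPDK1_1 and shPDK1_2, with a call for shPDK1_2 (log2 fold change 0.10, SE 0.029, adjusted p = 0.0106) that was lost without shCtrl replicate 2 (0.0737) or shPDK1_2 replicate 2 (0.062). ENO3 was scarce, with 3.64 ± 0.381 CPM in OSC and 2.3 ± 0.461 in non-OSC (adjusted p = 0.0527, but 0.0454 without non-OSC replicate 3, 0.0411 with scaling by library size alone and 0.0281 with the minimum of 10 counts), and 4.05, 4.41 and 3.88 in the hairpin table. PKM, the pyruvate kinase of most tissues outside liver and red cells, had 2902 ± 73 CPM in OSC and 2868 ± 119.8 in non-OSC (adjusted p = 0.685) and 2982 ± 58.4, 3006 ± 84 and 3033 ± 102 in shCtrl, shPDK1_1 and shPDK1_2, and was called in no comparison. Its splice forms cannot be separated in gene counts.

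Lactate dehydrogenase consists of LDHA subunits, which favor pyruvate reduction, and LDHB subunits, which favor lactate oxidation. LDHB had 446, 413 and 433 CPM in OSC and 701, 659 and 686 in non-OSC (log2 fold change -0.66, SE 0.043, adjusted p = 1.09e-11). LDHA had 1694, 1721 and 1682 CPM in OSC and 1661, 1557 and 1582 in non-OSC (log2 fold change 0.086, SE 0.035, adjusted p = 0.0364). LDHB was lower in every OSC library, whereas the call of LDHA was lost without OSC replicate 1 (adjusted p = 0.0565), OSC replicate 2 (0.107), non-OSC replicate 2 (0.159) or non-OSC replicate 3 (0.105). Per kb, LDHA made up 66.1% ± 1.08 of both genes in OSC, 53.7% ± 0.351 in non-OSC, 53.8% ± 0.217 in shCtrl, 53.1% ± 0.357 in shPDK1_1 and 49.9% ± 0.0490 in shPDK1_2. With shPDK1_2, LDHB had 631, 600.1 and 650.3 CPM against 541, 522 and 538 in shCtrl (log2 fold change 0.23, SE 0.041, adjusted p = 8.31e-05) and 589, 533 and 577 in shPDK1_1 (log2 fold change 0.15, SE 0.04, adjusted p = 0.012 for shPDK1_2 against shPDK1_1, lost without shPDK1_1 replicate 2, adjusted p = 0.0598, or shPDK1_2 replicate 3, 0.0867). LDHA had 1254 ± 12.9, 1295 ± 50.3 and 1264 ± 50.4 CPM in the same 3 conditions, with no call. The within-library log2 ratio of LDHA to LDHB was 1.01 ± 0.0028 in shPDK1_2 and 1.23 ± 0.013 in shCtrl (exact permutation p = 0.1, two-sided). LDHB shares 27% of its sequence with another annotated locus, which had at most 4 counts in any library.

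Lactate leaves through SLC16A1 (MCT1), which works in both directions, and SLC16A3 (MCT4), typical of cells that release lactate. SLC16A3 had 165, 183 and 177 CPM in OSC and 74.7, 80.9 and 77.5 in non-OSC (log2 fold change 1.17, SE 0.06, adjusted p = 2.03e-13). SLC16A1 had 82.8, 76.2 and 76.3 CPM in OSC and 104, 86.5 and 91.1 in non-OSC (log2 fold change -0.26, SE 0.072, adjusted p = 0.00311). The carriers moved in opposite directions without overlap of the groups, and SLC16A3 made up 60.5% ± 2.4 of both per kb in OSC and 36.4% ± 3.08 in non-OSC. In the hairpin table, the share of SLC16A3 was 40.2% ± 0.398 in shCtrl, 38.1% ± 3.61 in shPDK1_1 and 39.2% ± 1.93 in shPDK1_2. SLC16A3 had 80.3, 76.5 and 79.3 CPM and SLC16A1 82, 85.3 and 84.5 CPM in that order, and neither was called with a hairpin. BSG had 574 ± 28.7 CPM in OSC and 537 ± 27.8 in non-OSC (adjusted p = 0.0765), and was called higher in OSC without OSC replicate 1 (0.0444), with scaling by library size alone (0.0133), with no filter (0.0367) and with the replicate block (0.00807). It had 582 ± 28.8 CPM in shPDK1_2 against 536 ± 8.47 in shCtrl (log2 fold change 0.12, SE 0.04, adjusted p = 0.0302) and 529 ± 23.3 in shPDK1_1, and this call was lost without shCtrl replicate 1 (adjusted p = 0.0593), 2 (0.0678) or 3 (0.113) or shPDK1_2 replicate 2 (0.176).

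PGM1 links glucose phosphate to glycogen, and the pentose phosphate members divide into the oxidative PGLS and PGD, of which PGD yields NADPH, and the non-oxidative RPIA, RPE, TKT and TALDO1, which rearrange sugars. PGM1 had 137, 134 and 136 CPM in OSC and 82.4, 83.5 and 89.7 in non-OSC (log2 fold change 0.67, SE 0.058, adjusted p = 1.38e-09). RPIA (ENSG00000153574.9, chr2:88691673-88750929, plus strand) had 15.9, 21.3 and 15.6 CPM in OSC and 42.6, 44.8 and 42.9 in non-OSC (log2 fold change -1.29, SE 0.11, adjusted p = 1.02e-09). PGM1 was higher and RPIA lower in every OSC library. RPE was lower too, with 68.1 ± 4.08 against 95.4 ± 9.67 CPM (log2 fold change -0.49, SE 0.075, adjusted p = 7.73e-06), while PGD was higher, with 234 ± 6.68 against 199 ± 8.87 (log2 fold change 0.23, SE 0.05, adjusted p = 0.00039). PGLS had 32.3 ± 2.37 and 37.2 ± 4.36 CPM in OSC and non-OSC (adjusted p = 0.0783), TKT 477 ± 31.4 and 514 ± 24 (adjusted p = 0.0622) and TALDO1 166 ± 8.8 and 169.8 ± 4.71 (adjusted p = 0.618). PGLS was called lower in OSC without non-OSC replicate 1 (adjusted p = 0.00678) and with the replicate block (0.0383), and TKT without non-OSC replicate 1 (0.00661), without OSC replicate 3 (0.0314) and with the replicate block (0.00253). None of these 7 genes was called with either hairpin in the fit reported here. PGM1 was called higher with shPDK1_2 without shCtrl replicate 3 (adjusted p = 0.0248), with the minimum of 10 counts (0.0388) and with the replicate block (0.0458), and TALDO1 in the fit of the compared groups alone (0.0434) and with the replicate block (0.0383). In shCtrl, shPDK1_1 and shPDK1_2, RPIA had 24.9, 25.5 and 27.2 CPM, PGM1 99, 104 and 109, and PGD 242, 248 and 261. RPE had 70.6, 75.4 and 75 CPM in the same order, PGLS 31.4, 31.4 and 26.6, TKT 449.8, 446 and 479.6 and TALDO1 150.4, 161 and 165. The exons of RPE overlap a gene on the opposite strand over 23.8% of their length, and those of GAPDH over 17.6%. Those of ALDOA do so over 13.6% and those of ALDOC over 11.3%. Counting without strand cannot separate such overlaps.

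On the per-kb scale the members spanned a wide range, from GAPDH (1543 CPM per kb in OSC, 1400.5 in shCtrl) and ENO1 (964 and 861) down to PFKFB2 (0.612 and 0.661) and ENO3 (0.847 and 0.945). GAPDH and ENO1 were the highest members in each condition and PFKFB2 and ENO3 the lowest. SLC2A1 had 119 CPM per kb in OSC and 44.8 in non-OSC, and BPGM 26.2 and 3.03. Some isoform shares of shCtrl, itself from OSCs, lay nearer to non-OSC than to OSC. Those of HK2, LDHA and SLC16A3 were 33.6%, 53.8% and 40.2% in shCtrl. They were 34.3%, 53.7% and 36.4% in non-OSC and 44.6%, 66.1% and 60.5% in OSC. Those of ENO2, SLC2A6, PFKL and PFKM also lay nearer to non-OSC, at 1.57%, 7.95%, 21.4% and 12.2% in shCtrl. They were 0.680%, 10.9%, 19.6% and 12.8% in non-OSC and 4.04%, 3.99%, 24.7% and 9.02% in OSC. The shares of SLC2A3 and PFKFB4 in shCtrl, 30.4% and 16.4%, lay nearer to OSC (27.1% and 19.3%) than to non-OSC (12% and 9.54%). Those of SLC2A1, PFKFB2, PFKFB3, PFKP and ENO3 were also nearer to OSC, and that of ALDOC lay about midway. The difference between shCtrl and OSC was not tested.

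Of 54 further genes of the same pathways, 32 passed the low-count filter in the OSC table, of which 21 were called, 16 higher and 5 lower in OSC, against 63.9% of all genes (32.4% higher and 31.5% lower). Those with a call and at least a 2-fold ratio were PGM2L1, a relative of phosphoglucomutase (132 ± 6.43 against 17.7 ± 0.979 CPM), TXNIP, which restrains glucose uptake (92.3 ± 4.15 against 32.6 ± 1.84), the glucose transporters SLC2A12 (3.42 ± 0.211 against 1.22 ± 0.125) and SLC2A10 (13.1 ± 0.116 against 5.96 ± 0.528), H6PD, which starts the pentose phosphate route in the endoplasmic reticulum (97.1 ± 4.92 against 47.3 ± 3.56), and PGM3 of hexosamine synthesis (107 ± 5.42 against 53.4 ± 3.8), all higher in OSC. Of 33 that passed in the hairpin table, shPDK1_1 had 2 called higher, the glycogen phosphorylase PYGL (1.22-fold) and TXNIP (1.2-fold), and 0 lower, against 1.62% and 1.44% of all genes. With shPDK1_2, 8 were called higher and 6 lower, against 12% and 14.2% of all genes, and none of these reached a 2-fold ratio. HIF1A, the oxygen-regulated factor whose recognition letters were searched above, had 253 ± 9.0 CPM in OSC, 243 ± 9.32 in non-OSC, 298 ± 10.5 in shCtrl, 304 ± 11.3 in shPDK1_1 and 284 ± 11.3 in shPDK1_2, with no call.

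Library totals lay between 7992499 and 10495051 counts in the OSC table and between 8073055 and 11256536 in the hairpin table. The members took 2.24% to 2.33% of all counts in non-OSC, 2.45% to 2.51% in OSC, 2.05% to 2.09% in shCtrl, 2.13% to 2.19% in shPDK1_1 and 2.19% to 2.25% in shPDK1_2. Mitochondrial genes took 2.97% to 3.22% of the counts in shCtrl, 2.43% to 2.84% in shPDK1_1 and 2.91% to 3.04% in shPDK1_2, and the part of this difference in the results was not tested. Of the osteoblast markers, COL1A1, SPP1 and RUNX2 were present, but SP7 and IBSP had at most 1 count in any library. The summed counts of 8 osteoblast lineage markers were 5018 to 5597 in non-OSC, 12413 to 15755 in OSC, 19433 to 23966 in shCtrl, 20853 to 29352 in shPDK1_1 and 35034 to 39665 in shPDK1_2. COL1A1 and SPP1 made up most of this sum and the list did not move together, since RUNX2 was lower in OSC (17.3 ± 2.78 against 37.7 ± 0.945 CPM, log2 fold change -1.11, adjusted p = 9.3e-09), COL1A2 had 0 to 1 counts in OSC and 7 to 10 in non-OSC, and ALPL had 1.49 ± 0.683 and 2.66 ± 0.379 CPM (adjusted p = 0.0514). The part of these markers in the members' changes was not tested. The osteoclast markers CTSK and MMP9 summed to 255 to 284 counts in non-OSC, 627 to 799 in OSC, 445 to 559 in shCtrl, 284 to 408 in shPDK1_1 and 221 to 280 in shPDK1_2, and the pericyte markers RGS5 and ACTA2 to 43 to 48, 178 to 203, 177 to 179, 126 to 186 and 146 to 179 in the same order, and their part was not tested either. The epithelial markers EPCAM and KRT5 summed to at most 45 counts per library, the myeloid markers CD74, CD14 and PTPRC to at most 31 and the endothelial markers PECAM1 and VWF to at most 15. The lymphocyte markers CD3D and NKG7 summed to at most 1 count per library.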

How the data were processed

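RNA of 15 libraries of the 143B line was prepared with an NEBNext Ultra RNA kit, and the strand setting of the counting is not given in the sources used here. Per the submitters' processing notes, the tools were Trimmomatic 0.39, FastQC 0.12.1, STAR 2.7.11a and RSEM 1.3.3 with GRCh38.p14. The authors deposited expected counts of each gene from RSEM, without normalization, in a table for OSC and non-OSC and another for the hairpin libraries. Per the deposited tables, 6.85% and 6.92% of all expected counts were not whole, and these were rounded here.

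Each table was fitted whole with edgeR 4.0.16 in R 4.3.3 (TMM factors, filterByExpr, quasi-likelihood test, Benjamini-Hochberg adjustment, threshold 0.05). The 9 hairpin libraries shared one fit. Standard errors follow from the F statistic of each contrast, and SD is over 3 libraries. Depth limits genes with few counts, such as ENO3 and PFKFB2. Replicates of a condition differed by more than counting noise (chi-square per degree of freedom from 1.95 to 3.7), so each was counted once. On simulated counts for OSC against non-OSC, with 14287 genes run, the test recovered 162 of 200 genes changed 2-fold in either direction and made 11 false calls. Only these 200 genes were changed, whereas 63.9% of genes were called in the data, so changes that broad were not covered. Isoform ratios were tested by exact permutation with SciPy 1.17.1. Symbols, exons and coordinates came from GENCODE 44 on GRCh38, promoter windows from RefSeq on GRCh38.p14, and plots from matplotlib 3.10.9.

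The members, the further pathway genes and the markers were chosen with earlier results of these data known. All members are named. Values of every library are printed for members with a call and a ratio of at least 1.5 (or its inverse) in OSC against non-OSC or with either hairpin, and for isoforms of a step that changed in different directions. For a few other members they are printed too, chosen after their values were seen. Alternatives were DESeq2 1.42.0, library size alone, no filter, a minimum of 10 counts per gene in each library, the replicate number as a block, the compared groups alone, each library left out, and, added after seeing the data, members summed with overlapping or near-identical loci. Isoform shares were also computed with the length of the longest transcript.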

Additional observations from a re-analysis of the deposited data

Results flagged for a closer look

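The hairpin groups differed from each other for 13 of 36 members, against 16.3% of all genes tested, in the direct test of shPDK1_2 against shPDK1_1 within the same fit (edgeR quasi-likelihood test, adjusted p under 0.05, n = 3 per group), which is the reason these genes are listed. Values are log2 fold changes of shPDK1_2 against shPDK1_1. BPGM was lower by the most, at -1.64, and had 18.1 ± 2.17 and 56.2 ± 0.763 CPM. PFKFB3 was at -0.57, SLC2A3 at -0.47 and HK2 at -0.46, and in each of these genes all shPDK1_2 libraries were below all shPDK1_1 libraries. The members that were higher with shPDK1_2 changed by less, with PFKFB4 at 0.23, PFKM at 0.21, GPI at 0.19, PGK1 at 0.16, ALDOA at 0.15, LDHB at 0.15, BSG at 0.14, PGAM1 at 0.13 and GAPDH at 0.093. BPGM, GPI, HK2, PFKFB3, PGAM1, PGK1 and SLC2A3 kept their calls in all 13 alternatives. The other 6 lost theirs without single libraries, namely shPDK1_1 replicate 1 (ALDOA, BSG, GAPDH and PFKM, with adjusted p of 0.054, 0.0763, 0.0967 and 0.113), shPDK1_1 replicate 2 (LDHB, 0.0598), shPDK1_1 replicate 3 (BSG, GAPDH and PFKFB4, 0.0942, 0.0633 and 0.0872), shPDK1_2 replicate 2 (BSG, PFKFB4 and PFKM, 0.107, 0.0738 and 0.139) and shPDK1_2 replicate 3 (LDHB, 0.0867). Gained without single libraries were ENO1, PFKL and TKT (higher, without shPDK1_1 replicate 2, 0.0391, 0.0452 and 0.00558) and PGLS (lower, without shPDK1_1 replicate 1, 0.0487).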

How the results depend on the processing

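Across the alternatives that kept all libraries, the number of members called was 26 to 31 for OSC against non-OSC (27 as reported), 7 to 8 for shPDK1_1 (8), 14 to 18 for shPDK1_2 (16) and 13 in each for shPDK1_2 against shPDK1_1 (13). With 1 library left out, it was 24 to 28, 4 to 8, 12 to 15 and 10 to 15. Of the 27, 8, 16 and 13 members called, 24, 3, 12 and 7 kept their call in every alternative run, and no called member changed direction in any. Called only in an alternative were BSG, ENO3, PFKP, PGLS and TKT for OSC against non-OSC, PGM1 and TALDO1 for shPDK1_2, and ENO1, PFKL, PGLS and TKT between the hairpins. For shPDK1_1, the 4 came without shCtrl replicate 1, shCtrl replicate 2 or shPDK1_1 replicate 3. With the replicate number as a block, 31, 8, 18 and 13 members were called. Over all genes, the block raised the calls from 9126 to 9420, 446 to 507, 3812 to 3943 and 2374 to 2522. Deviations of same-numbered libraries had correlations from -0.0093 to 0.073 in the OSC table and from -0.0539 to 0.0948 in the hairpin table. Those of different-numbered libraries ran from -0.0756 to 0.0223 and from -0.0539 to 0.046. All were small, and the numbers were not taken to pair the samples, though these correlations cannot settle it. Isoform shares depended on the length used, which their SD does not cover. With the length of the longest transcript, the HK2 share was 33% in OSC and 24.2% in non-OSC. The LDHA share was then 73% in OSC, 61.7% in non-OSC and 58% in shPDK1_2. Counts of 3 per library set the floor of detection. Gene counts do not separate splice forms, and near-identical or overlapping loci limit ALDOA, LDHB, PGAM1, TIGAR and RPE. Summing members with partners of shared sequence left 27, 8, 16 and 13 members called. For LDHB and RPE this could hardly change a call, since their summed partners had at most 4 and 1 counts in any library. The summing did not cover overlaps with genes on the opposite strand.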
